A study of Mus musculus with 12 samples.

Results

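Chemokine ligand genes were followed across the cells of the stromal vascular fraction (SVF) of mouse white adipose tissue. The members were all genes whose symbol starts with Ccl, Cxcl, Cx3cl or Xcl and a number, plus Pf4 and Ppbp, with any unique molecular identifier (UMI, a tag that counts each captured mRNA molecule once) in the 12 libraries. The rule matched 46 gene entries under 41 symbols, and 39 of the 31053 genes counted were members with a UMI. Of these, 32 held at least 200 UMIs over the cells kept here and are described below. The other 7 were Ccl28 (160 UMIs), Cxcl17 (15), Ccl26 (9), Ccl21c (5), Ccl20 (5), Cxcl15 (4) and Ccl27b (2). Of the 32, 12 lie on chromosome 11 and 10 on chromosome 5.

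Chemokines are small secreted proteins that bind G-protein-coupled receptors on leukocytes and draw them toward the source. CC ligands chiefly act on monocytes, macrophages, T cells and eosinophils, ELR-type CXC ligands act on neutrophils, and the interferon-induced CXC ligands act on activated T and natural killer cells. In white fat, Ccl2 is best known for its link to macrophage entry during obesity, and Cxcl12 and Ccl11 are products of stromal cells.

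The SVF is what remains after collagenase digestion once the floating adipocytes, and with them any cell that floats, are taken off, and here it came from 300 mg of tissue, sampled at several places of the depot, from epididymal (eWAT) or inguinal (iWAT) fat of male mice aged 12 weeks. The WT-Veh group was C57BL/6J mice given vehicle, the ob/ob-Veh group was leptin-deficient obese Lepob/Lepob mice given vehicle, and the ob/ob-Rosi group was Lepob/Lepob mice given rosiglitazone, a PPARγ agonist, at 30 mg/kg in the morning and evening for 3 days. There were 2 libraries per group and depot, each from 1 mouse, and single cells were sequenced by the 10x Genomics 3-prime method. An exact permutation test of 2 against 2 libraries cannot go below p = 0.33, so the p-values given rest on the variance model of edgeR. The Lepob allele is a nonsense point mutation, so UMIs of Lep do not check the genotype. Lep stood at 0.784 to 1.69 CPM in the WT-Veh libraries, 0.139 to 1.03 CPM in the ob/ob-Veh libraries and 1.74 to 4.49 CPM in the ob/ob-Rosi libraries. Groups are named as labelled.

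A level summed over the cells of a class cannot tell fewer expressing cells from less RNA per cell. The cells kept numbered 57613 in eWAT and 68482 in iWAT, and each library held between 19593940 and 66315901 UMIs. The libraries labelled ob/ob-Veh stood apart from all the others. In eWAT their perivascular macrophages mostly formed cluster 20 while those of the other groups mostly formed cluster 0, and their preadipocytes lay mostly in clusters 23 and 24 against 5 and 7. In iWAT the same held for perivascular macrophages (cluster 21 against 7 and 19) and progenitors (cluster 22 against 15). Clusters 7 and 19 in turn split by replicate number. Cluster 7 held 817 WT-Veh and 1504 ob/ob-Rosi cells of replicate 1 against 32 and 57 of replicate 2. In cluster 19 these were 19 and 136 of replicate 1 against 2280 and 3096 of replicate 2. The iWAT blood endothelial cells of WT-Veh lay mostly in cluster 9 and those of the other groups in cluster 13. Lipid-associated macrophages, a type known to build up in the fat of obese mice, made up 0.132% and 0.306% of the named cells of the ob/ob-Veh libraries of eWAT, against 10.3% to 12.8% in WT-Veh and 13.8% to 15.5% in ob/ob-Rosi. In iWAT they made up 0.111% and 0.361% of ob/ob-Veh against 4.18% to 7.69% of WT-Veh and 3.76% to 6.67% of ob/ob-Rosi. The low shares go against what is known of obese fat. The authors proposed that such macrophages floated off with the adipocytes, and they stained cells of the floating layer to test this. The counts used here cannot test it. Libraries also shared cell barcodes, at most 338 between a pair, in eWAT ob/ob-Rosi 2 and iWAT WT-Veh 2. A list of 12 immediate-early and heat-shock genes that respond to tissue digestion (none at 0 in every library) summed to 5712 to 7609.6 CPM in eWAT progenitors of WT-Veh, 14199 to 16019 CPM in those of ob/ob-Veh and 4763 to 7624 CPM in those of ob/ob-Rosi. It moved with the groups in the same way in eWAT perivascular macrophages, at 14112 to 17677 CPM in WT-Veh, 21959 to 28475 CPM in ob/ob-Veh and 14729 to 15430.1 CPM in ob/ob-Rosi. Its part in the results below was not tested.

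Short stretches of promoters are shown for described ligands that carry a motif of NF-κB or of interferon-driven factors close to the transcription start, because Cxcl1 and Cxcl10 differed between groups in the same stromal class. In RefSeq promoters of GRCm38.p6 (250 bases before to 50 bases after each start), the NF-κB motif (GGG, any 2 bases, TTTCC) was found on either strand in 1.63% of 32851 promoters and the interferon-stimulated response element (GAAA, any 2 bases, GAAA) in 3.44%. Promoters were found for 30 member symbols. The NF-κB letters occurred in Ccl20, Ccl9, Cxcl1, Cxcl2 and Cxcl3, and the interferon letters in Ccl19, Cxcl10 and Cxcl14. Capitals mark the motif, the motif starts the given number of bases before the transcription start, and a match is not evidence of a bound factor. Cxcl1 and Cxcl2 each hold a further match that is not shown, and Ccl20 is not shown since it held 5 UMIs. Ccl9 and Cxcl14, which carry such letters too, were called in the opposite direction to Cxcl1 and Cxcl10 in stromal classes of ob/ob-Veh. Ccl19, with the interferon letters, was called in the same direction as Cxcl10 in eWAT preadipocytes. The windows are chr5:90891164-90891193 (plus strand, 71 bases before the start) for Cxcl1, chr5:90903792-90903821 (plus strand, 97 bases) for Cxcl2, chr5:90786018-90786047 (plus strand, 73 bases) for Cxcl3, chr11:83578652-83578681 (minus strand, 35 bases, the motif read on the opposite strand) for Ccl9, chr5:92349083-92349112 (minus strand, 213 bases) for Cxcl10, chr13:56296704-56296733 (minus strand, 172 bases) for Cxcl14 and chr4:42756554-42756583 (minus strand, 208 bases) for Ccl19.
Cxcl1: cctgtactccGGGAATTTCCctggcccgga
Cxcl2: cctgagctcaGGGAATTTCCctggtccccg
Cxcl3: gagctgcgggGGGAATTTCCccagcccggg
Ccl9: tttgaactttGGAAAGCCCCaagtcacctt
Cxcl10: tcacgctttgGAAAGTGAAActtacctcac
Cxcl14: gtgtccacagGAAACAGAAAagcagcaccc
Ccl19: ttttgggacaGAAAGTGAAAgctcaaggca

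The neutrophil-attracting genes Cxcl1, Cxcl2 and Cxcl3 hold the same letters GGGAATTTCC upstream of their starts. They differed widely in UMIs, with 531741 for Cxcl2, 115315 for Cxcl1 and 727 for Cxcl3 over all kept cells.

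Cells were sorted into source classes by markers that hold no chemokine, and levels are given as CPM (the UMIs of a gene scaled to a common total of all UMIs) of the summed cells of a class in a library. CPM compares groups for a gene, and because 3-prime UMI counts depend little on transcript length, levels of different genes are set side by side only as a rough order. Classes come from clusters of the same cells, so the levels by class are a description. Macrophages held the ligands of most UMIs, as the map of median levels by class shows.

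**Figure D1:**
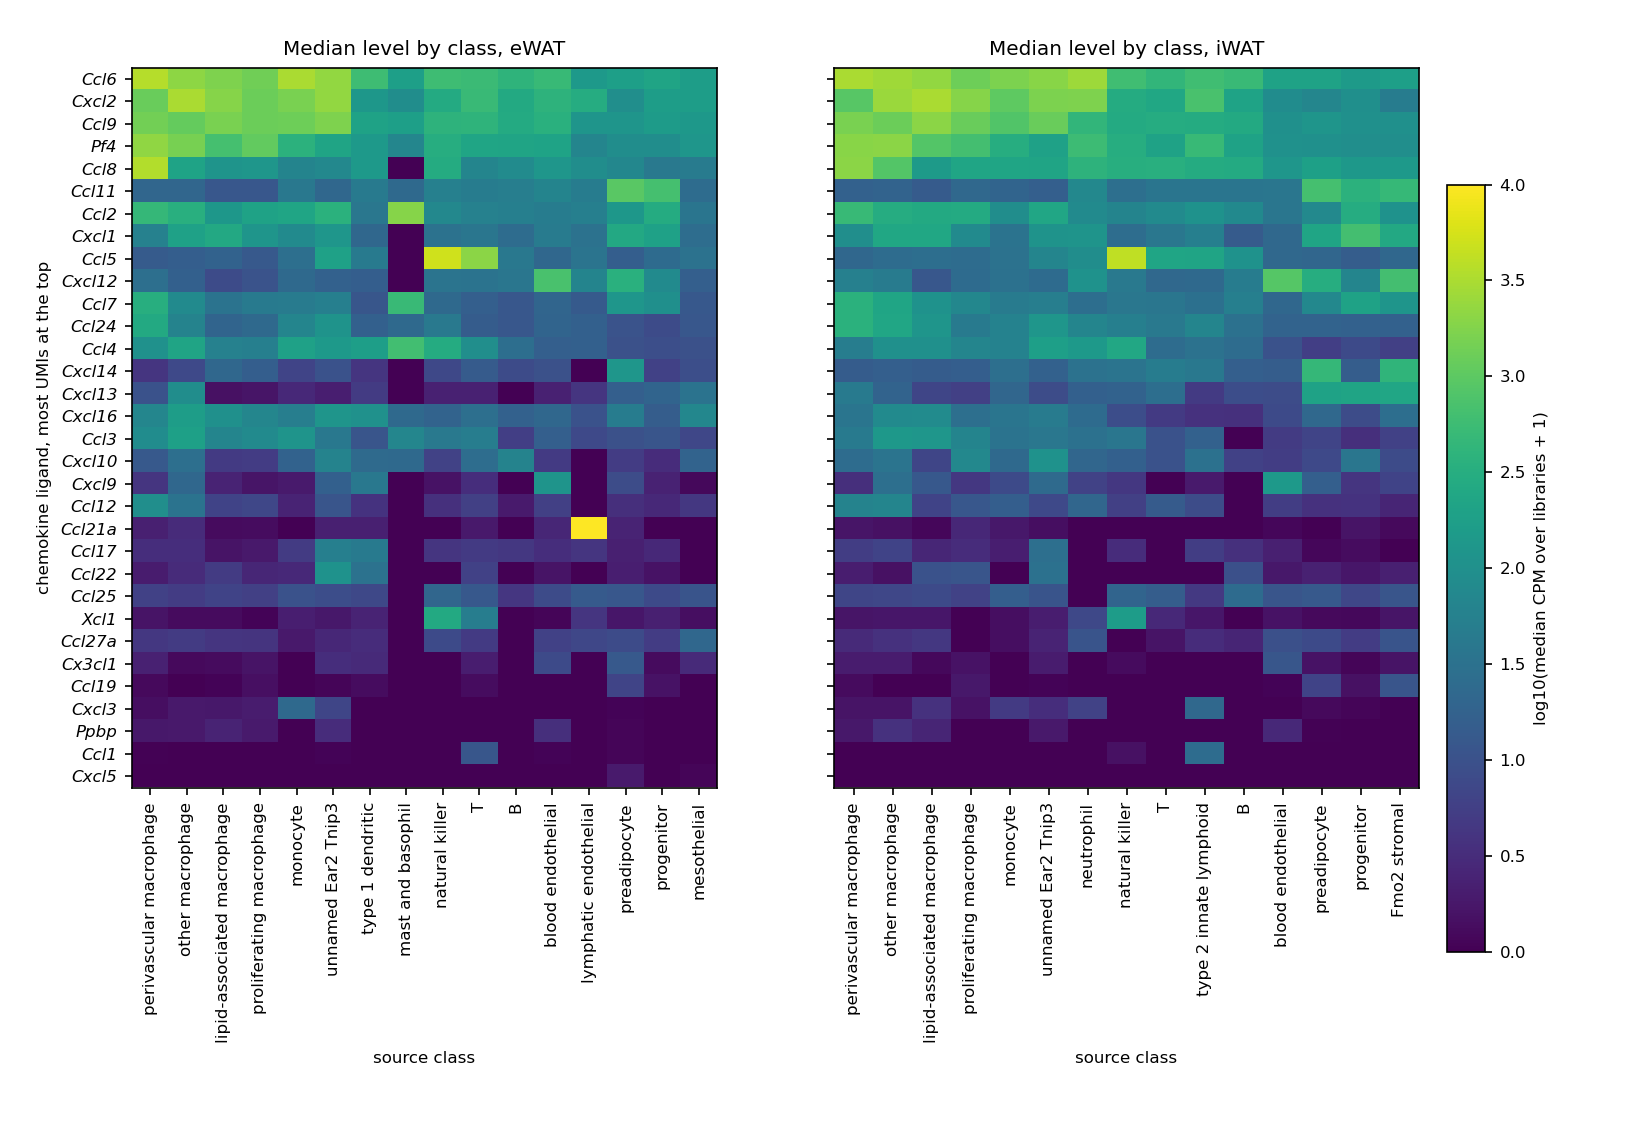
Median level over libraries of the 32 described ligands (rows) in each source class (columns) of eWAT and iWAT, as log10(CPM + 1). Ccl6, Cxcl2, Ccl9 and Pf4 fill the myeloid columns, while Ccl5 and Xcl1 peak in natural killer cells, Ccl21a in lymphatic endothelial cells and Ccl11, Cxcl14 and Cxcl12 in stromal or endothelial classes.

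Among the macrophage ligands, Ccl6 (721595 UMIs in all), a mouse CC ligand that acts on monocytes and macrophages, had a median of 3596 CPM (range 2822 to 4486, n = 6) in perivascular macrophages of eWAT and 3137 CPM (range 2639 to 5473, n = 6) in iWAT. Cxcl2 was highest in the other macrophages of eWAT, at 3107 CPM (range 2628 to 3637, n = 6), and in the lipid-associated macrophages of iWAT, at 3142 CPM (range 2425 to 5952, n = 5). The heparin-binding Pf4, known from platelets, stood at 2188 CPM (range 1644 to 3326, n = 6) in eWAT perivascular macrophages and 1937 CPM (range 528 to 4209, n = 6) in those of iWAT. Ppbp, the other platelet ligand, held 616 UMIs in all. Ccl9 (397306 UMIs) was shared among myeloid classes of eWAT, at 1128 CPM in other macrophages, 1317 CPM in monocytes and 1659 CPM in an unnamed cluster, called the Ear2 Tnip3 cluster here after 2 of its top 10 genes, whose leading genes were those of antigen presentation (H2-Ab1, Cd74, H2-Eb1 and H2-Aa). Ccl8 was concentrated in perivascular macrophages, at 3479.6 CPM (range 399.9 to 4990.0, n = 6) against 207 CPM in other macrophages in eWAT and 1982 CPM (range 1694 to 5831, n = 6) in iWAT. Ccl12, a ligand of Ccr2, was highest in the same class in eWAT, with 92.4 CPM, and stood at 60.1 CPM there in iWAT. The eotaxin Ccl24, which draws eosinophils through Ccr3, was also highest there among tested classes, at 271 and 363 CPM.

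The monocyte attractants Ccl2 and Ccl7, both ligands of Ccr2, were shared between macrophages and stromal cells. In eWAT Ccl2 stood at 465 CPM (range 391.9 to 704, n = 6) in perivascular macrophages and in iWAT progenitors at 297 CPM (range 114 to 421, n = 6). Ccl7 stood at 319 CPM (range 172 to 469.7, n = 6) in eWAT perivascular macrophages. Mast and basophil cells read 1852 CPM for Ccl2 in the 1 eWAT library, an ob/ob-Veh one, that held enough of them. Ccl3, a macrophage inflammatory protein, was highest in other macrophages of eWAT, at 186 CPM (range 136 to 238, n = 6). Ccl4, a related macrophage inflammatory protein, was high in natural killer cells too, at 285 CPM (range 148 to 853, n = 6) in eWAT and 251 CPM (range 217 to 784, n = 6) in iWAT. The Ccr4 ligands Ccl17 and Ccl22 marked the Ear2 Tnip3 cluster, at 52.6 and 107 CPM in eWAT, and type 1 dendritic cells followed at 43.2 and 31.3 CPM. Cxcl3 stood at 21.9 CPM (range 0 to 58.4, n = 6) in eWAT monocytes. Cxcl16, a membrane-tethered ligand of Cxcr6, was held by myeloid classes, at 169 CPM in eWAT other macrophages.

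Lymphoid sources were narrow. Ccl5, a T cell and monocyte attractant, reached 5143 CPM (range 3155 to 7009, n = 6) in natural killer cells of eWAT and 4161 CPM (range 373 to 10584, n = 6) in those of iWAT. Its level in preadipocytes of eWAT, which are not known to make it, was 14.5 CPM, and 5.57% of preadipocytes against 83.0% of natural killer cells held a UMI at median depths of 2910 and 1819 UMIs. Xcl1, the ligand of Xcr1 on type 1 dendritic cells, stood at 272 CPM in natural killer cells of eWAT and 48.5 CPM in T cells. Ccl1, a ligand of Ccr8 with 269 UMIs, was found in T cells of eWAT at 10.7 CPM and in type 2 innate lymphoid cells of iWAT at 25.3 CPM.

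Endothelial and stromal classes held the homeostatic ligands. Ccl21a, which guides Ccr7-bearing cells into lymph vessels, stood at 10054 CPM (range 9941 to 10690.0, n = 3) in lymphatic endothelial cells and at 1.68 CPM in blood endothelial cells of eWAT. Its reads may be shared with near-identical copies. Cxcl12, the ligand of Cxcr4, was at 711 CPM (range 348 to 885, n = 6) in blood endothelial cells and 339 CPM (range 249.9 to 461, n = 6) in preadipocytes of eWAT. Cxcl9, an interferon-induced ligand of Cxcr3, was likewise highest in blood endothelial cells, at 116 CPM in eWAT and 144 CPM in iWAT. Ccl11 (eotaxin) was the leading stromal ligand of eWAT, at 930.0 CPM (range 607 to 1395, n = 6) in preadipocytes and 661 CPM (range 274 to 896, n = 6) in progenitors. The neutrophil attractant Cxcl1 reached 632 CPM (range 414 to 829.9, n = 6) in iWAT progenitors. Cxcl14, whose receptor is still debated, stood at 125 CPM (range 36.3 to 391, n = 6) in eWAT preadipocytes and 459.8 CPM (range 175 to 1116, n = 6) in those of iWAT. Cxcl13, the B cell attractant, varied widely between libraries, reading 0 and 2145 CPM in the WT-Veh libraries, 61 and 3.95 CPM in the ob/ob-Veh libraries and 2.11 and 328 CPM in the ob/ob-Rosi libraries in mesothelial cells of eWAT. The remaining members stayed low. Medians over eWAT preadipocytes were 11.2 CPM for Ccl25, 7.1 CPM for Ccl27a (which overlaps another gene), 12.3 CPM for the tethered Cx3cl1, 5.65 CPM for Ccl19 and 0.977 CPM for Cxcl5. Cxcl10, the other interferon-induced ligand of Cxcr3, was at 60.6 CPM in the Ear2 Tnip3 cluster of eWAT.

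Levels in other classes were read against RNA that leaks between droplets. The complement genes C1qa, C1qb and C1qc, which lymphocytes, endothelial and stromal cells are not known to make, stood in T cells of eWAT at 10.7% of their level in perivascular macrophages (range 4.83% to 22.6%, n = 6), in blood endothelial cells at 10.5% and in preadipocytes at 3.93%. Ccl8 stood at 3.35%, 4.36% and 2.28% in the same classes. Its median lay below that of the C1q genes in each, but these genes are not a matched measure of leaked Ccl8. Other and lipid-associated macrophages of eWAT held the C1q genes at 73.1% and 43.6% of their perivascular macrophage level, and Ccl8 at 9.27% and 2.36%. A share below the C1q genes therefore does not decide whether Ccl8 was background. Single libraries went the other way, with 8.86% for Ccl8 against 5.9% for the C1q genes in T cells and 6.22% against 4.66% in blood endothelial cells of ob/ob-Veh replicate 2, and 2.05% and 2.28% against 1.73% and 1.64% in preadipocytes of the ob/ob-Veh libraries. Statements below that a level lay at or below the C1q genes, or above them, compare medians over libraries. They do not decide whether a level was background. Erythroid clusters and unnamed ones other than the Ear2 Tnip3 cluster held 1163 of 57613 cells in eWAT and 10566 of 68482 in iWAT. Outside them, cells with 2 or more markers of a distant lineage numbered 33098 in eWAT and 35785 in iWAT.

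The effect of obesity was addressed by setting the eWAT libraries labelled ob/ob-Veh against WT-Veh within each of 13 source classes. A ligand was called where its edgeR p-value, adjusted over all genes tested in the class, was at most 0.05 and the change at least 1.1-fold. Of 270 ligand and class pairs tested, 46 were called in 20 members, 17 higher (1.54% of all gene and class pairs were called higher) and 29 lower (1.84% called lower). The median log2 fold change was -0.37 over the ligand pairs and -0.02 over all pairs tested. Perivascular macrophages had less Ccl8 and Ccl4 and more Ccl24 and Cxcl12, and progenitors had more Cxcl1, Ccl7 and Cxcl10. Pairs are not independent, since all classes come from the same libraries. Of the 46 calls, 15 were kept in every alternative that could be computed, among them Ccl8 in perivascular macrophages, Cx3cl1 in preadipocytes, Ccl3 in T cells and Cxcl1 and Cxcl10 in progenitors, and 31 were not made in at least 1. Ccl8, Ccl6, Ccl9, Pf4, Ccl24, Cxcl2, Ccl3, Ccl2 and Ccl7 were taken as macrophage ligands for a reading of background. Among the calls were 16 of these ligands in lymphoid, endothelial, mesothelial or stromal classes, and 10 of these had a level at or below that of the C1q genes.

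**Figure D2:**
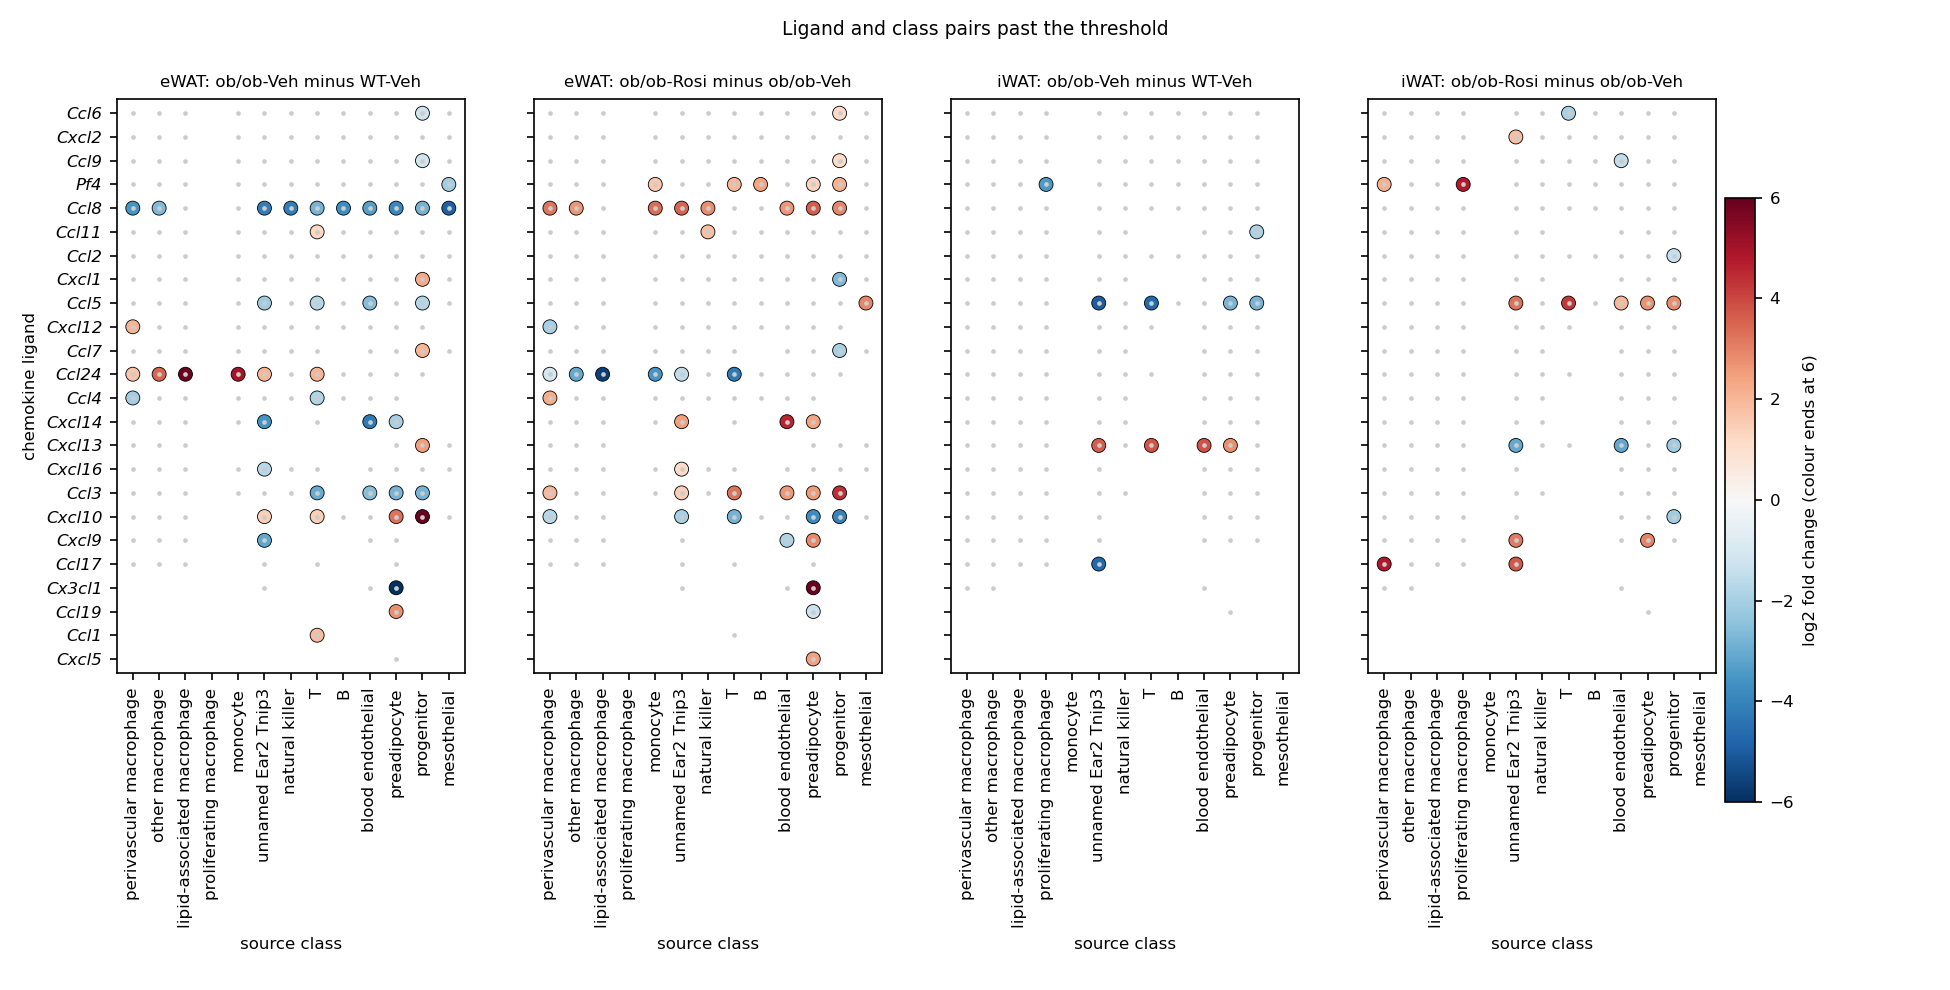
Ligand and class pairs past the threshold in 4 comparisons, coloured by log2 fold change (red higher, blue lower), with grey dots for pairs tested but not called. In eWAT, Ccl8 and Ccl24 run across many classes with opposite colours, and the ob/ob-Rosi panel carries the reverse colours in a comparison that shares the ob/ob-Veh libraries.

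In perivascular macrophages of eWAT, Ccl8 stood at 4407 and 4990.0 CPM in the WT-Veh libraries, 399.9 and 470.4 CPM in the ob/ob-Veh libraries and 4907 and 2552 CPM in the ob/ob-Rosi libraries. The ob/ob-Veh libraries were the lowest, without overlap (log2 fold change -3.54, SE 0.36, adjusted p = 0.00096). Ccl8 was called lower in 9 other classes, of which 7 were lymphoid, endothelial, mesothelial or stromal with levels at or below those of the C1q genes. The largest of these differences were in mesothelial cells, with 359.9 and 52.9 CPM in the WT-Veh libraries, 7.42 and 7.63 CPM in the ob/ob-Veh libraries and 227 and 38.1 CPM in the ob/ob-Rosi libraries (log2 fold change -4.88, SE 0.89, adjusted p = 0.016), and in natural killer cells (log2 fold change -4.14, SE 0.65, adjusted p = 0.009). For mesothelial cells the alternatives ranged from -5.7 to -2.81, and 2 of 14 did not make the call. In natural killer cells Ccl8 read 508 and 684 CPM in WT-Veh, 30.8 and 45.8 in ob/ob-Veh and 497 and 81.3 in ob/ob-Rosi. In the Ear2 Tnip3 cluster it fell as well, with 157 and 120.2 CPM in WT-Veh, 7.25 and 10.5 in ob/ob-Veh and 168 and 24.6 in ob/ob-Rosi (log2 fold change -4.14, SE 0.60, adjusted p = 0.0016), as it did in the other macrophages (log2 fold change -2.64, SE 0.53, adjusted p = 0.028), a class with 62 and 73 cells in the ob/ob-Veh libraries. The remaining classes were B cells (log2 -3.75), T cells (log2 -2.80), blood endothelial cells (log2 -3.29), preadipocytes (log2 -3.88) and progenitors (log2 -2.84). In the 7 lymphoid, endothelial, mesothelial or stromal classes the C1q shares were lower in ob/ob-Veh than in WT-Veh too. Their part was not tested.

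Ccl24 went the other way in the ob/ob-Veh libraries of eWAT. Perivascular macrophages had 174 and 186 CPM in the WT-Veh libraries, 671 and 573 CPM in the ob/ob-Veh libraries and 264 and 278 CPM in the ob/ob-Rosi libraries. The groups did not overlap (log2 fold change 1.69, SE 0.24, adjusted p = 0.0068), but the call was lost without either WT-Veh library (adjusted p = 0.0979 and 0.073). Other macrophages read 44.6 and 33.3 CPM in WT-Veh, 906 and 156 in ob/ob-Veh and 75.1 and 34.9 in ob/ob-Rosi. Monocytes had 29.9 and 10.4 CPM in the WT-Veh libraries, 1331 and 122 CPM in the ob/ob-Veh libraries and 91.5 and 39.8 CPM in the ob/ob-Rosi libraries, so that the ob/ob-Veh libraries differed among themselves (log2 fold change 4.99, SE 0.79, adjusted p = 0.0024). Without ob/ob-Veh replicate 1, the difference in monocytes was no longer called (log2 2.18, adjusted p = 0.271), nor was that in other macrophages (log2 1.76, adjusted p = 0.274, against 3.51 with both). Lipid-associated macrophages were tested with 5 libraries, since 1 ob/ob-Veh library held too few, and the single one left, with 23 cells, stood at 1192 CPM against 15.8 and 18.7 CPM in WT-Veh (log2 5.94). With 1 library in that group the fit takes its spread from the other groups, so this call has no replicate check. Ccl24 was also called higher in the Ear2 Tnip3 cluster (log2 1.99) and in T cells (log2 2.05), where it stood at 6.53% and 7.27% of its perivascular macrophage level in the ob/ob-Veh libraries against 4.83% and 5.9% for the C1q genes. The T cell call was not made in 7 of 14 alternatives, with values down to 0.6.

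**Figure D3:**
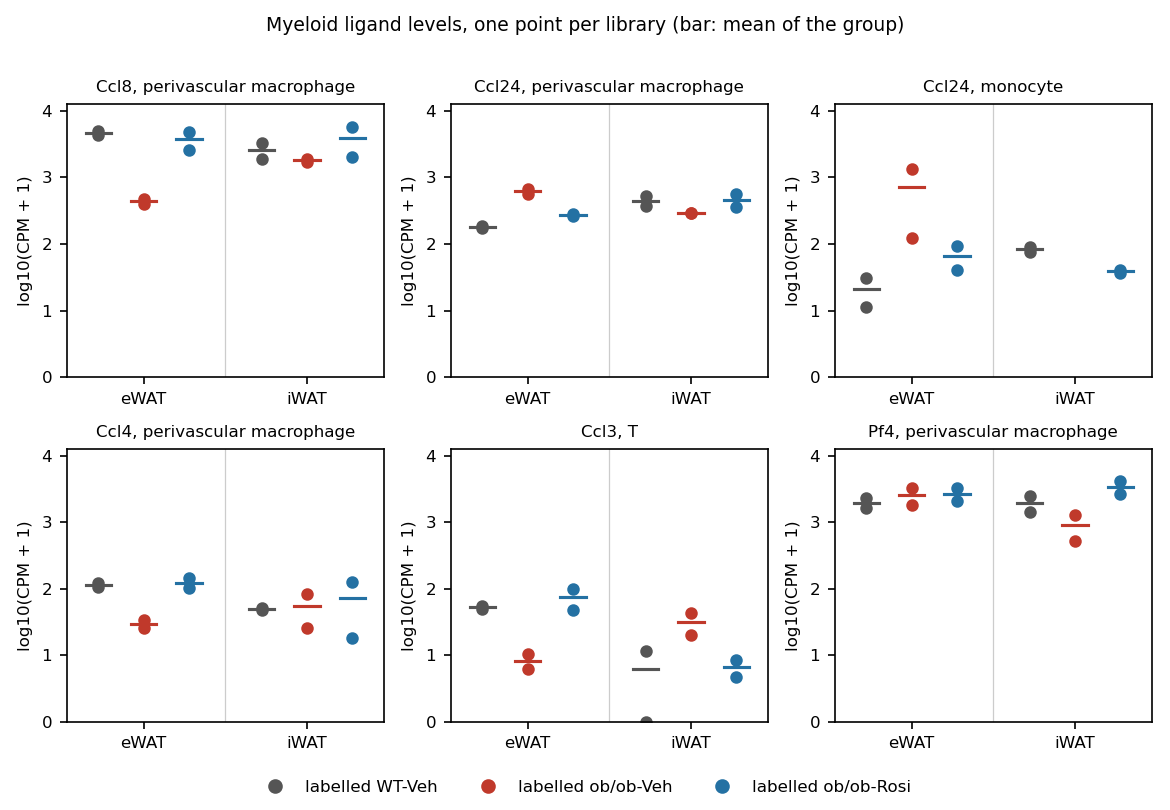
Levels as log10(CPM + 1), with 1 point per library and a bar at the group mean, for 6 ligand and class pairs in eWAT (left of each panel) and iWAT (right). Ccl8 and Ccl4 of eWAT perivascular macrophages are lowest in ob/ob-Veh, where Ccl24 is highest, while in iWAT the Ccl8 and Ccl24 groups lie close together. No ob/ob-Veh points appear for iWAT monocytes, which were too few.

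Ccl4, Ccl3 and Ccl5 were lower in several classes of eWAT in ob/ob-Veh. Ccl4 in perivascular macrophages stood at 121 and 105 CPM in the WT-Veh libraries, 24.6 and 33.4 CPM in the ob/ob-Veh libraries and 102 and 143 CPM in the ob/ob-Rosi libraries (log2 fold change -2.07, SE 0.27, adjusted p = 0.0038). Ccl3 in T cells stood at 55 and 49.4 CPM in the WT-Veh libraries, 5.15 and 9.37 CPM in the ob/ob-Veh libraries and 99.4 and 47.2 CPM in the ob/ob-Rosi libraries, so the ob/ob-Veh libraries were the lowest by a wide margin (log2 fold change -3.01, SE 0.46, adjusted p = 0.00095). Ccl3 was also called lower in blood endothelial cells (log2 -2.54), preadipocytes (log2 -2.77) and progenitors (log2 -2.80). Its median shares there lay somewhat above those of the C1q genes. In other macrophages of eWAT, however, Ccl3 stood at 225% of its perivascular macrophage level and the C1q genes at 73.1%. A share above the C1q genes thus does not place Ccl3 above background. The C1q shares of T cells, blood endothelial cells and preadipocytes were lowest in ob/ob-Veh as well. In T cells they were 16.8% and 8.53% in WT-Veh, 4.83% and 5.9% in ob/ob-Veh and 22.6% and 12.8% in ob/ob-Rosi. In the same order, blood endothelial cells had 15.1% and 9.82%, 9% and 4.66%, and 17.6% and 11.1%. Preadipocytes had 8.14% and 3.74%, 1.73% and 1.64%, and 5.63% and 4.13%. The part of these shares in the Ccl3 calls was not tested. Ccl4 was lower in T cells (log2 -1.79), which read 139 and 131 CPM in WT-Veh, 52.4 and 34.4 in ob/ob-Veh and 244 and 53.9 in ob/ob-Rosi. This call was not made in 8 of 15 alternatives, with -0.85 at the finer clustering (adjusted p = 0.42) and 0.28 with cells holding markers of a distant lineage removed. For Ccl5 in T cells the libraries read 1829.6 and 5159.8 CPM in the WT-Veh libraries, 1185 and 1223 CPM in the ob/ob-Veh libraries and 2212 and 3966 CPM in the ob/ob-Rosi libraries (log2 fold change -1.70, SE 0.48, adjusted p = 0.04), and calls fell on the Ear2 Tnip3 cluster (log2 -2.14), blood endothelial cells (log2 -2.58) and progenitors (log2 -1.76). The Ear2 Tnip3 cluster read 396 and 652 CPM in WT-Veh, 185 and 72.6 in ob/ob-Veh and 92.8 and 206 in ob/ob-Rosi for Ccl5 and blood endothelial cells 9.74 and 64.1 CPM in WT-Veh, 4.84 and 8.61 in ob/ob-Veh and 32.3 and 34.9 in ob/ob-Rosi. Both lie far below T cells. For Ccl5, 7 of 15 alternatives did not call T cells (-0.87, adjusted p = 0.493 without WT-Veh replicate 2, and -1.28, adjusted p = 0.176 at the finer clustering), 4 of 14 did not call blood endothelial cells (-0.58, adjusted p = 0.613 without WT-Veh replicate 2), 5 of 15 the Ear2 Tnip3 cluster and 6 of 15 progenitors. The finer clustering split off type 2 innate lymphoid-like cells, 191 and 136 in ob/ob-Veh against 1 and 11 in WT-Veh, and left 255 and 197 T cells of 412 and 315 in ob/ob-Veh. It left 277 and 88 Ear2 Tnip3 cells of 619 and 253 in WT-Veh and 778 and 473 of 1010 and 678 in ob/ob-Veh. In ob/ob-Rosi 407 and 201 of 648 and 434 were left. A type 2 dendritic class, named in eWAT only at that clustering, held 334 and 153 cells of WT-Veh. In ob/ob-Veh it held 226 and 199 and in ob/ob-Rosi 220 and 236. The part of this make-up in the calls of the Ear2 Tnip3 cluster was not tested. Leaving out WT-Veh replicate 1 or ob/ob-Veh replicate 1 took Ccl4 in perivascular macrophages just past the threshold (adjusted p = 0.0511 and 0.0577).

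Stromal progenitors, the Pi16 and Dpp4 positive cells, gave 9 calls in ob/ob-Veh, 4 of them higher (Cxcl1, Ccl7, Cxcl10 and Cxcl13) and 5 lower (Ccl8, Ccl3, Ccl5, Ccl6 and Ccl9), where 4.03% of all genes tested in the class were called. Their number differed, with 252 and 154 in WT-Veh, 1721 and 766 in ob/ob-Veh and 282 and 74 in ob/ob-Rosi. So did their make-up, since at the finer clustering a progenitor cluster with Has1 and Tnfaip6 among its top 10 genes came almost only from ob/ob-Veh. It held 6 and 17 cells of WT-Veh, 906 and 278 of ob/ob-Veh and 13 and 1 of ob/ob-Rosi, and its part was not tested. Cxcl1 stood at 194 and 154 CPM in the WT-Veh libraries, 1004 and 644 CPM in the ob/ob-Veh libraries and 192 and 55.5 CPM in the ob/ob-Rosi libraries (log2 fold change 2.26, SE 0.43, adjusted p = 0.0065). Ccl7 stood at 99.6 and 38.5 CPM in the WT-Veh libraries, 351 and 184 CPM in the ob/ob-Veh libraries and 95.3 and 27.7 CPM in the ob/ob-Rosi libraries (log2 fold change 2.02, SE 0.50, adjusted p = 0.031), a call that DESeq2 did not make (adjusted p = 0.419) and that was lost without WT-Veh replicate 2 or ob/ob-Veh replicate 1 (adjusted p = 0.183 and 0.211). Cxcl10 was at 0 in both WT-Veh libraries and at 50.4 and 53 CPM in ob/ob-Veh. Set against a floor of 3 UMIs over the WT-Veh group, this is at least 24.7-fold higher (adjusted p = 9.2e-05). The promoter windows of Cxcl1 and Cxcl10 are those printed above. The digestion list and Il6 were higher in the same class, with values given above and below, and their part in these differences was not tested. Cxcl10 was also called higher in preadipocytes (log2 3.26), T cells (log2 1.41) and the Ear2 Tnip3 cluster, the last with 57.9 and 63.2 CPM in the WT-Veh libraries, 161 and 205 CPM in the ob/ob-Veh libraries and 45.4 and 41.2 CPM in the ob/ob-Rosi libraries (log2 fold change 1.43, SE 0.26, adjusted p = 0.0065). Cxcl13 rose in progenitors (log2 2.52), while Ccl6 (log2 -1.22), Ccl9 (log2 -1.21) and Ccl5 fell there. Ccl6 read 245 and 222 CPM in WT-Veh, 89.5 and 113 in ob/ob-Veh and 245 and 211 in ob/ob-Rosi, and Ccl9 read 177 and 162 CPM in WT-Veh, 71.1 and 75.5 in ob/ob-Veh and 178 and 147 in ob/ob-Rosi. The C1q shares of eWAT progenitors moved the same way, and their part was not tested. They were 6.31% and 5.45% in WT-Veh, 1.36% and 1.81% in ob/ob-Veh and 7.84% and 6.95% in ob/ob-Rosi. For Cxcl10, T cells read 18.3 and 26.9 CPM in WT-Veh, 65.3 and 79.2 in ob/ob-Veh and 24.8 and 4.49 in ob/ob-Rosi. This T cell call was not made in 8 of 14 alternatives, with values down to 0.89.

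Other calls lay in single classes. Preadipocytes had less Cx3cl1, with 13.7 and 16.5 CPM in the WT-Veh libraries, 0.149 and 0.33 CPM in the ob/ob-Veh libraries and 11 and 17.1 CPM in the ob/ob-Rosi libraries (log2 fold change -6.0, SE 0.47, adjusted p = 0.0002), and more Ccl19 (log2 2.72). Cxcl14 in preadipocytes stood at 239 and 137 CPM in the WT-Veh libraries, 36.3 and 64.9 CPM in the ob/ob-Veh libraries and 114 and 391 CPM in the ob/ob-Rosi libraries (log2 fold change -2.0, SE 0.53, adjusted p = 0.048), a call that 6 of 15 alternatives did not make. It was also lower in blood endothelial cells, where 3 UMIs were left in ob/ob-Veh against 42 in WT-Veh, and in the Ear2 Tnip3 cluster (log2 -3.60). Cxcl12 in perivascular macrophages stood at 24.3 and 21.9 CPM in the WT-Veh libraries, 119 and 85.4 CPM in the ob/ob-Veh libraries and 31.1 and 16.4 CPM in the ob/ob-Rosi libraries (log2 fold change 2.04, SE 0.31, adjusted p = 0.0095), a call lost without either WT-Veh library or without ob/ob-Veh replicate 1 (adjusted p = 0.0577 to 0.0939). Blood endothelial cells and preadipocytes held far more Cxcl12, as given above. No background share of their RNA in macrophages was measured. In the Ear2 Tnip3 cluster Cxcl16 was lower, at 153 and 176 CPM in the WT-Veh libraries, 53.6 and 61.5 CPM in the ob/ob-Veh libraries and 114 and 130.0 CPM in the ob/ob-Rosi libraries (log2 fold change -1.67, SE 0.26, adjusted p = 0.0023), and so was Cxcl9 (log2 -3.10), which read 12.7 and 166 CPM in WT-Veh, 8.83 and 14.5 in ob/ob-Veh and 16.6 and 32.7 in ob/ob-Rosi. Cxcl9 rested on WT-Veh replicate 2, without which it was -0.32 (adjusted p = 0.835), and 7 of 15 alternatives did not call it. Cxcl16 was not called at the finer clustering or without cells holding markers of a distant lineage (adjusted p = 0.171 and 0.0684). In T cells the stromal product Ccl11 read 44.6 and 27.6 CPM in WT-Veh, 87.6 and 89.6 in ob/ob-Veh and 49.7 and 38.2 in ob/ob-Rosi (log2 1.22). No background share of stromal RNA was measured, and 6 of 14 alternatives did not call it (0.74, adjusted p = 0.306 with doublets removed, and 0.73, adjusted p = 0.474 without WT-Veh replicate 2). Ccl1 in T cells was called higher (log2 1.86), but not in 7 of 13 alternatives. The T class of ob/ob-Veh included the type 2 innate lymphoid-like cells given above. Mesothelial cells had less Pf4 (log2 -2.09), with 201 and 157 CPM in WT-Veh, 24.4 and 66.9 in ob/ob-Veh and 166 and 92.8 in ob/ob-Rosi, below the share of the C1q genes.

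Treatment was addressed by setting ob/ob-Rosi against ob/ob-Veh in eWAT. This comparison uses the same ob/ob-Veh libraries as the one before, so opposite signs in both are not separate evidence. Of 270 pairs, 47 were called in 19 members, 31 higher (1.68% of all gene and class pairs) and 16 lower (1.29%). Every alternative kept 15 of them, among them Ccl8 and Ccl4 in perivascular macrophages and Cxcl9 in blood endothelial cells, and 32 were not made in at least 1. Ccl8 was higher in perivascular macrophages (log2 fold change 3.22, SE 0.35, adjusted p = 0.002) and in 7 more classes, at log2 3.37 in monocytes, 2.63 in other macrophages, 3.51 in the Ear2 Tnip3 cluster, 2.81 in natural killer cells, 2.67 in blood endothelial cells, 3.63 in preadipocytes and 2.92 in progenitors. Monocytes read 218 and 93.7 CPM in WT-Veh, 14.1 and 17.4 in ob/ob-Veh and 285 and 33.6 in ob/ob-Rosi and preadipocytes 177 and 82.8 CPM in WT-Veh, 8.18 and 10.7 in ob/ob-Veh and 165 and 58.4 in ob/ob-Rosi. The monocyte call was not made in 9 of 15 alternatives (1.26, adjusted p = 0.307 without ob/ob-Rosi replicate 1) and that in natural killer cells in 6 of 14 (1.30, adjusted p = 0.0591 without the same library). Ccl24 was lower in lipid-associated macrophages (log2 -5.70, again against the single ob/ob-Veh library and with no replicate check), monocytes (log2 -3.56), other macrophages (-3.06), perivascular macrophages (-1.07), the Ear2 Tnip3 cluster (-1.51) and T cells, where 2 UMIs remained. Without ob/ob-Veh replicate 1, monocytes (-0.77, adjusted p = 0.669) and other macrophages (-1.32, adjusted p = 0.414) were not called. Of 16 calls of macrophage ligands outside myeloid classes, 9 were at or below the level of the C1q genes.

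Ccl4 and Ccl3 were higher in eWAT of ob/ob-Rosi, Ccl4 in perivascular macrophages (log2 fold change 2.21, SE 0.27, adjusted p = 0.0032) and Ccl3 in T cells (log2 fold change 3.28, SE 0.48, adjusted p = 0.0012). Ccl3 in perivascular macrophages read 97.1 and 151 CPM in the WT-Veh libraries, 37.5 and 45.4 CPM in the ob/ob-Veh libraries and 77.7 and 209 CPM in the ob/ob-Rosi libraries (log2 fold change 1.93, SE 0.42, adjusted p = 0.041). This call was not made in 6 of 15 alternatives, with values down to 1.01. Ccl3 was also called in the Ear2 Tnip3 cluster (log2 1.49), blood endothelial cells (2.59), preadipocytes (2.53) and progenitors (4.36), and Ccl5 in mesothelial cells (2.93). The Ear2 Tnip3 cluster read 40.2 and 37.5 CPM in WT-Veh, 22.6 and 29.8 in ob/ob-Veh and 49.4 and 86 in ob/ob-Rosi for Ccl3, and mesothelial cells 38.7 and 43.1 CPM in WT-Veh, 10.2 and 14.7 in ob/ob-Veh and 23.2 and 155 in ob/ob-Rosi for Ccl5. The mesothelial call of Ccl5 was not made in 6 of 14 alternatives, with values down to 1.05. Progenitors gave 8 calls, 5 higher (Ccl3, Ccl8, Ccl6, Ccl9 and Pf4) and 3 lower, where 3.26% of all genes tested in the class were called. The C1q shares of this class, T cells, blood endothelial cells and preadipocytes rose as well, as given above. Their part was not tested. The ligands that fell were Cxcl1 (log2 fold change -2.67, SE 0.44, adjusted p = 0.0021), Ccl7 (log2 fold change -2.0, SE 0.50, adjusted p = 0.038) and Cxcl10 (log2 fold change -4.00, SE 0.54, adjusted p = 0.00053). The Ccl7 call was not made in 6 of 15 alternatives. Cxcl10 fell as well in T cells (log2 -2.84), perivascular macrophages (-1.72), preadipocytes (-3.75) and the Ear2 Tnip3 cluster (-1.98). Its call in perivascular macrophages was not made in 7 of 15 alternatives.

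Cxcl9 in blood endothelial cells of eWAT, its main source, read 101 and 132 CPM in the WT-Veh libraries, 253 and 211 CPM in the ob/ob-Veh libraries and 68.2 and 57 CPM in the ob/ob-Rosi libraries. The ob/ob-Rosi libraries were the lowest of the 3 groups (log2 fold change -1.84, SE 0.26, adjusted p = 0.0021), while ob/ob-Veh against WT-Veh missed the threshold (adjusted p = 0.064). Preadipocytes had more Cxcl9 (log2 2.90), Cx3cl1 (5.90), Cxcl5 (2.47) and Cxcl14 (2.41) and less Ccl19 (-1.28). The Cxcl5 call was not made in 5 of 14 alternatives, with values down to 1.05. Pf4 was higher in B cells (log2 2.41), T cells (1.99), monocytes (1.63), preadipocytes (1.36) and progenitors (2.13). B cells read 212 and 215 CPM in WT-Veh, 45.9 and 100 in ob/ob-Veh and 272 and 524 in ob/ob-Rosi, T cells 270.0 and 167 CPM in WT-Veh, 89.3 and 169.8 in ob/ob-Veh and 681 and 293 in ob/ob-Rosi and progenitors 90.4 and 89.1 CPM in WT-Veh, 20.2 and 57.5 in ob/ob-Veh and 162 and 164 in ob/ob-Rosi. Of these, T cells, preadipocytes and progenitors lay at or below the share of the C1q genes. The C1q shares of these 3 classes rose from ob/ob-Veh to ob/ob-Rosi too, as given above. In B cells they were 5.55% and 4.14% in ob/ob-Veh and 6.39% and 12.8% in ob/ob-Rosi. The part of these shares in the Pf4 calls was not tested. The Pf4 call in B cells was not made in 5 of 13 alternatives and that in preadipocytes in 5 of 15. Pf4 was not called in perivascular macrophages, where it read 1644 and 2304 CPM in the WT-Veh libraries, 1843 and 3326 CPM in the ob/ob-Veh libraries and 2072 and 3310.4 CPM in the ob/ob-Rosi libraries. The other calls were Cxcl14 in blood endothelial cells (log2 4.59) and the Ear2 Tnip3 cluster (2.44), Cxcl16 in that cluster (1.18), Cxcl12 in perivascular macrophages (-1.97), Ccl6 (1.19) and Ccl9 (1.16) in progenitors and Ccl11 in natural killer cells (1.82), which read 53 and 56.4 CPM in WT-Veh, 18.5 and 48.5 in ob/ob-Veh and 112 and 99.1 in ob/ob-Rosi. No background share of stromal or endothelial RNA was measured for these Cxcl12 and Ccl11 calls. That of Ccl11 was not made in 6 of 14 alternatives, with values down to 0.85.

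With ob/ob-Rosi set against WT-Veh, the edgeR test called 0 of 270 ligand pairs in eWAT (0.0313% of all pairs called) and 0 of 249 in iWAT (0.153%). At an unadjusted p under 0.05 there were 43 pairs in eWAT (3.01% of all gene and class pairs) and 37 in iWAT (4.4%), DESeq2 called 0 and 5, and a fit with the replicate number as a block called 4 and 13. With 2 libraries a group this does not show that the groups were alike. The difference in Ccl8 of perivascular macrophages of eWAT, for example, was -0.32 on the log2 scale with an SE of 0.32.

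In iWAT fewer ligands were called. Between ob/ob-Veh and WT-Veh, 11 of 249 pairs in 5 members passed over 12 classes, 4 higher (1.41% of all pairs) and 7 lower (1.25%). Every call of these 11 was lost in at least 1 alternative. Ccl5 in iWAT T cells read 168 and 890.3 CPM in the WT-Veh libraries, 43 and 19 CPM in the ob/ob-Veh libraries and 279 and 474 CPM in the ob/ob-Rosi libraries (log2 fold change -4.67, SE 0.92, adjusted p = 0.0099). These T cells numbered 2779 and 66 in WT-Veh, 62 and 153 in ob/ob-Veh and 138 and 73 in ob/ob-Rosi. Most of them thus came from WT-Veh replicate 1, and whether they were alike in kind was not tested. The Ear2 Tnip3 cluster had 80.6 and 349 CPM in the WT-Veh libraries, 7.28 and 11.6 CPM in the ob/ob-Veh libraries and 66.2 and 63.2 CPM in the ob/ob-Rosi libraries (log2 fold change -5.01, SE 0.74, adjusted p = 0.0093). In iWAT this cluster was not found at the finer clustering. Whether its group calls compare like cells was therefore not tested. In natural killer cells, the main source, Ccl5 read 622 and 10584 CPM in the WT-Veh libraries, 373 and 1290.1 CPM in the ob/ob-Veh libraries and 7032 and 7910.5 CPM in the ob/ob-Rosi libraries, so the WT-Veh libraries overlapped ob/ob-Veh and no call was made (adjusted p = 0.12). This iWAT class of 2138 cells also carried T cell markers, and at the finer clustering the natural killer class held 1086 cells and the further T cluster 932. Preadipocytes (log2 -2.77) and progenitors (log2 -2.81) were called lower as well. Cxcl13 was higher in preadipocytes, with 100.3 and 33.2 CPM in the WT-Veh libraries, 515 and 389 CPM in the ob/ob-Veh libraries and 300.4 and 85.1 CPM in the ob/ob-Rosi libraries (log2 fold change 2.81, SE 0.64, adjusted p = 0.045), and in T cells (log2 3.76), blood endothelial cells (3.81) and the Ear2 Tnip3 cluster (3.64). T cells read 8.54 and 20.7 CPM in WT-Veh, 71.7 and 247 in ob/ob-Veh and 34 and 0 in ob/ob-Rosi for Cxcl13, blood endothelial cells 0.577 and 5.46 CPM in WT-Veh, 34.1 and 79.9 in ob/ob-Veh and 9.48 and 2.71 in ob/ob-Rosi and the Ear2 Tnip3 cluster 4.84 and 3.83 CPM in WT-Veh, 27.8 and 112 in ob/ob-Veh and 10.2 and 2.54 in ob/ob-Rosi. Blood endothelial cells of WT-Veh and ob/ob-Veh came mostly from different clusters, as given above. Stromal classes held Cxcl13 as well, and no background share of stromal RNA was measured for the other classes. In iWAT T cells the C1q genes stood at 10.2% and 3.37% of their perivascular macrophage level in WT-Veh, 27.2% and 17.5% in ob/ob-Veh and 6.51% and 3.29% in ob/ob-Rosi, highest in ob/ob-Veh. The digestion list summed in these cells to 4119 and 4065 CPM in WT-Veh, 12638 and 9252 CPM in ob/ob-Veh and 3921 and 4207 CPM in ob/ob-Rosi, and in the Ear2 Tnip3 cluster to 5674 and 8205, 15893 and 13786, and 7332 and 7195 CPM in the same order. The part of either in the iWAT calls was not tested. The ob/ob-Veh libraries were the highest in each. Ccl17 in the Ear2 Tnip3 cluster read 305 and 19.1 CPM in the WT-Veh libraries, 8.61 and 4.22 CPM in the ob/ob-Veh libraries and 36 and 93.9 CPM in the ob/ob-Rosi libraries (log2 fold change -4.69, SE 1.11, adjusted p = 0.037). Its alternatives ranged from -9.84 to -2.07, and 3 of 14 did not make the call. Ccl11 in progenitors was lower, at 924 and 875 CPM in the WT-Veh libraries, 199 and 325 CPM in the ob/ob-Veh libraries and 256 and 405 CPM in the ob/ob-Rosi libraries (log2 fold change -1.90, SE 0.35, adjusted p = 0.041). Pf4 was lower in proliferating macrophages, where 1 ob/ob-Veh library was left, with 440.1 and 640.5 CPM in WT-Veh, 68.8 in ob/ob-Veh and 1318 and 1291 in ob/ob-Rosi (log2 -3.47), so the call has no replicate check of that group. Without ob/ob-Veh replicate 1 the iWAT count was 1 pair, and without replicate 2 it was 0. It was 57 without WT-Veh replicate 1, a library of which 9764 cells were in unnamed or erythroid clusters, and 19 without WT-Veh replicate 2.

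Rosiglitazone against vehicle in iWAT gave 19 of 249 pairs in 10 members, 12 higher (2.23% of all pairs) and 7 lower (1.68%). Every call of these 19 was lost in at least 1 alternative. Without either ob/ob-Veh library no pair was called, and without either WT-Veh library 67 were. Ccl5 was higher in T cells (log2 fold change 4.26, SE 0.92, adjusted p = 0.028) and in blood endothelial cells (log2 1.97), preadipocytes (2.73), progenitors (2.77) and the Ear2 Tnip3 cluster (3.25). In perivascular macrophages Pf4 read 1412 and 2461 CPM in the WT-Veh libraries, 528 and 1274 CPM in the ob/ob-Veh libraries and 2627 and 4209 CPM in the ob/ob-Rosi libraries (log2 fold change 2.12, SE 0.52, adjusted p = 0.047), and it was also higher in proliferating macrophages (log2 4.75), there against the single ob/ob-Veh library. Ccl17 was higher in perivascular macrophages (log2 4.81) and the Ear2 Tnip3 cluster (3.73). Over all barcodes the ob/ob-Veh libraries of iWAT held 20 and 7 UMIs of Ccl17, so both folds rest on few UMIs. The perivascular value ranged from 2.74 to 5.95, and 6 of 15 alternatives did not call it. In the Ear2 Tnip3 cluster Cxcl2 (1.78) and Cxcl9 (3.10) were higher too. Cxcl2 read 1942 and 1289 CPM in WT-Veh, 1173 and 1142 in ob/ob-Veh and 3334 and 2574 in ob/ob-Rosi and Cxcl9 37.1 and 31.1 CPM in WT-Veh, 3.97 and 14.8 in ob/ob-Veh and 98.7 and 15.3 in ob/ob-Rosi. Cxcl9 in preadipocytes read 14 and 16.8 CPM in the WT-Veh libraries, 6.97 and 10.5 CPM in the ob/ob-Veh libraries and 37.4 and 102 CPM in the ob/ob-Rosi libraries (log2 fold change 2.97, SE 0.49, adjusted p = 0.027). Progenitors had less Cxcl13, with 195 and 239 CPM in the WT-Veh libraries, 323 and 427 CPM in the ob/ob-Veh libraries and 62.2 and 89 CPM in the ob/ob-Rosi libraries (log2 fold change -2.14, SE 0.31, adjusted p = 0.013), Cxcl10 (log2 -2.13) and Ccl2 (-1.43). Ccl2 read 383 and 222 CPM in WT-Veh, 372 and 421 in ob/ob-Veh and 150.0 and 114 in ob/ob-Rosi, and Cxcl10 12.1 and 44.5 CPM in WT-Veh, 150.5 and 109.7 in ob/ob-Veh and 27.6 and 26.3 in ob/ob-Rosi. The digestion list summed to 13248 to 16423 CPM in iWAT progenitors of WT-Veh, 17333 to 18237 CPM in those of ob/ob-Veh and 11466 to 12318 CPM in those of ob/ob-Rosi, and its part was not tested. Cxcl13 was lower in blood endothelial cells (log2 -3.10) and the Ear2 Tnip3 cluster (-3.06), Ccl6 in T cells (-1.94) and Ccl9 in blood endothelial cells (-1.45). Ccl6 in T cells read 531 and 235 CPM in WT-Veh, 1664 and 977 in ob/ob-Veh and 325 and 173 in ob/ob-Rosi, and Ccl9 in blood endothelial cells 117 and 87.7 CPM in WT-Veh, 293 and 176 in ob/ob-Veh and 75.8 and 68.5 in ob/ob-Rosi. The C1q shares moved the same way in both classes, with 10.5% and 5.35% in ob/ob-Veh against 2.88% and 2.71% in ob/ob-Rosi in blood endothelial cells, and their part was not tested.

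The depots were compared over 9 classes found in both, as the mean of the 3 within-group differences. Of 209 ligand pairs, 42 were called in 20 members, 18 higher in iWAT (2.82% of all pairs) and 24 lower (3.68%). Every alternative kept 11 of the 42, among them Cxcl13 in progenitors and preadipocytes and Cxcl1 in progenitors. The Ear2 Tnip3 cluster was not found in iWAT at the finer clustering, so that alternative could not be run for it. Cxcl13 was higher in iWAT in 6 classes. Group means in progenitors were 3.12, 19.9 and 27.9 CPM in eWAT (WT-Veh first, then ob/ob-Veh, then ob/ob-Rosi), against 217, 375 and 75.6 CPM in iWAT (log2 fold change 3.98, SE 0.22, adjusted p = 2.4e-08). Preadipocytes differed by as much (log2 fold change 3.77, SE 0.46, adjusted p = 0.00014), and T cells (log2 4.04), natural killer cells (no fold, with eWAT ob/ob-Rosi at 0), blood endothelial cells (3.00) and the Ear2 Tnip3 cluster (3.27) were called as well. Cxcl1 in progenitors was at 174, 824 and 124 CPM in eWAT and at 632, 816 and 462 CPM in iWAT (log2 fold change 1.34, SE 0.25, adjusted p = 0.0019). Cxcl14 in preadipocytes was also higher in iWAT (log2 fold change 1.88, SE 0.33, adjusted p = 0.002), as were Cxcl9 in preadipocytes (log2 1.71) and Cxcl10 in progenitors, for which no fold is given since eWAT WT-Veh stood at 0. In the same order of groups, Cxcl14 averaged 188, 50.6 and 252 CPM in eWAT and 553, 273 and 792 CPM in iWAT, Cxcl10 0, 51.7 and 2.27 CPM in eWAT and 28.3, 130.1 and 27 CPM in iWAT and Cxcl9 8.57, 2.21 and 15.5 CPM in eWAT and 15.4, 8.72 and 69.6 CPM in iWAT. Cxcl14 was called in progenitors (log2 1.82) and blood endothelial cells (1.80) too. Cxcl13 averaged 0.727, 6.07 and 0.562 CPM in eWAT and 14.6, 159.5 and 17 CPM in iWAT in T cells and 4.46, 1.35 and 0 CPM in eWAT and 8.4, 107 and 14.2 CPM in iWAT in natural killer cells.

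Ccl8 was higher in iWAT in 5 classes, the Ear2 Tnip3 cluster (log2 1.76), T cells (1.73), preadipocytes (1.72), B cells (1.66) and progenitors (1.54), but was not called in perivascular macrophages (adjusted p = 0.42). In the 4 classes other than the myeloid Ear2 Tnip3 cluster its eWAT level lay below the share of the C1q genes. In iWAT it stood at 7.84% of its perivascular macrophage level in T cells, 9.78% in B cells and 3.21% in progenitors, below the C1q genes (8.37%, 10.3% and 3.82%), and at 5.25% in preadipocytes, above them (3.64%). These are medians, and single iWAT libraries lay above the C1q genes, as in progenitors of ob/ob-Veh (8.33% and 8.06% against 6.21% and 5.49%). It averaged 138, 8.87 and 96.3 CPM in eWAT and 148, 269 and 149 CPM in iWAT in the Ear2 Tnip3 cluster, 148, 24.7 and 193 CPM in eWAT and 179.6, 482 and 226 CPM in iWAT in T cells and 129.9, 9.45 and 112 CPM in eWAT and 137, 206 and 171 CPM in iWAT in preadipocytes. The ob/ob-Veh means of eWAT were the lowest in each. Ccl24 in T cells was higher too (log2 2.34), at 13.6, 42.7 and 1.12 CPM in eWAT and 25.2, 98.6 and 33.9 CPM in iWAT.

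**Figure D4:**
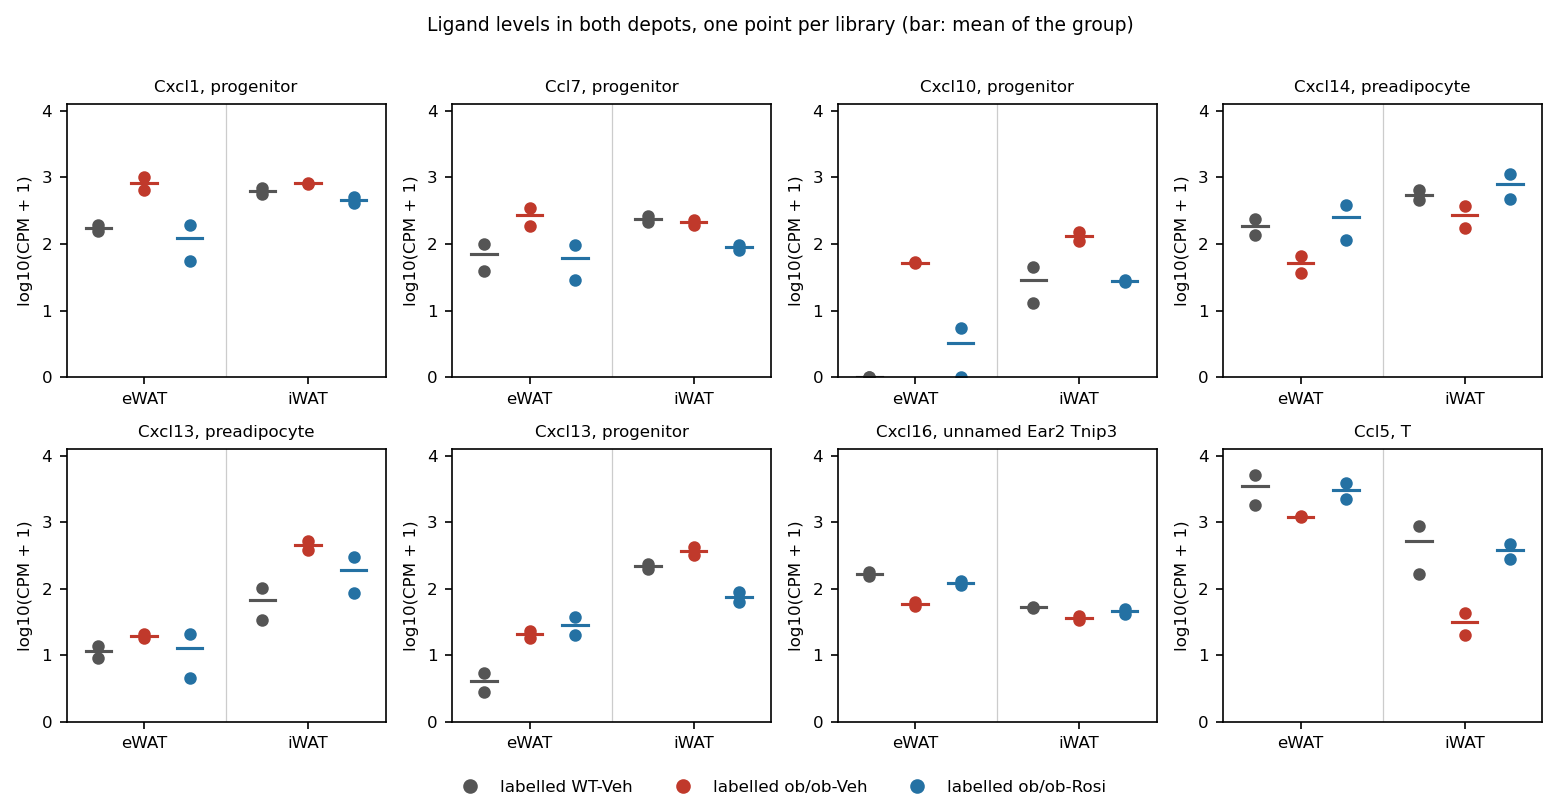
Levels as log10(CPM + 1), with 1 point per library and a bar at the group mean, for 8 ligand and class pairs in eWAT (left) and iWAT (right). Cxcl13 and Cxcl14 of stromal cells lie higher in iWAT in every group mean, Cxcl16 of the Ear2 Tnip3 cluster and Ccl5 of T cells lie lower, and Cxcl1, Ccl7 and Cxcl10 of eWAT progenitors peak in the libraries labelled ob/ob-Veh.

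Lower in iWAT were Cxcl16 in 6 classes and Ccl5, Ccl3 and Xcl1 in T cells. The Ear2 Tnip3 cluster differed in make-up between depots, since type 1 dendritic cells were a class of their own in eWAT (1293 cells) and in iWAT were split off only at the finer clustering (1319 cells). In it Cxcl16 averaged 164, 57.6 and 122 CPM in eWAT and 51.6, 35.5 and 44.9 CPM in iWAT (log2 fold change -1.39, SE 0.15, adjusted p = 0.00011). Its mean was 67.7, 67 and 89.9 CPM in eWAT and 33.5, 36.5 and 43.1 CPM in iWAT in perivascular macrophages (log2 -1.02) and 47.5, 30.5 and 52.9 CPM in eWAT and 20, 18.2 and 27.1 CPM in iWAT in preadipocytes (log2 -0.98), and T cells (-2.17), blood endothelial cells (-1.65) and progenitors (-1.16) were called lower as well. T cells differed in Ccl5 (log2 fold change -3.76, SE 0.45, adjusted p = 8.1e-05) and Xcl1 (log2 fold change -3.75, SE 0.54, adjusted p = 0.00026), but at a finer clustering neither was called (log2 -0.58 and -0.91, adjusted p = 0.59 for each). At that clustering Ccl4 was 0.07 (adjusted p = 0.961) and Ccl3 -0.86 (adjusted p = 0.288), and Ccl3 was not called in 9 of 19 alternatives. The T class differed between clusterings, since 932 iWAT cells, 544 of them from WT-Veh replicate 2, formed a further T cluster (led by Nkg7, Ms4a4b and Trbc2) at the finer one. Xcl1 averaged 49.7, 53.4 and 48.5 CPM in eWAT and 2.98, 3.17 and 1.89 CPM in iWAT. Ccl3 in T cells (log2 -1.43) averaged 52.2, 7.26 and 73.3 CPM in eWAT and 5.31, 31 and 5.65 CPM in iWAT, and Ccl4 (log2 -1.90) 135, 43.4 and 149 CPM in eWAT and 14.1, 30.2 and 24.5 CPM in iWAT. Cx3cl1 in preadipocytes (log2 -2.51) was lower in iWAT too. The Ear2 Tnip3 cluster had less Ccl22 (log2 -2.14, at 139.6, 131 and 74.7 CPM in eWAT and 32.4, 16.4 and 33.2 CPM in iWAT), Ccl5 (-2.20, at 524, 129 and 149.6 CPM in eWAT and 215, 9.44 and 64.7 CPM in iWAT) and Cxcl3 (-1.85). Progenitors had less Ccl5 (log2 -1.11) and Ccl3 (-1.29), but 12 of 21 alternatives did not call Ccl5, which turned to 0.67 at the finer clustering and was -0.04 without eWAT ob/ob-Rosi replicate 1, and 9 of 21 did not call Ccl3.

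The remaining depot calls were lower in iWAT. Blood endothelial cells had less Cxcl2 (log2 -2.37), Ccl3 (-1.74), Ccl9 (-1.39), Ccl6 (-1.12) and Pf4 (-1.01). The C1q genes stood in these cells at 10.5% of their perivascular macrophage level in eWAT and 3.69% in iWAT, and Pf4 at 8.29% and 5.52%, so this background was lower in iWAT as well, and its part was not tested. With cells holding markers of a distant lineage removed, the differences were 0.40 for Pf4, 0.04 for Ccl6, -0.19 for Ccl9 and -1.43 for Cxcl2 on the log2 scale, and none of these 4 was called. In these cells Cxcl2 averaged 542, 224 and 449 CPM in eWAT and 87.8, 72.3 and 78.3 CPM in iWAT, Ccl6 525, 385 and 497 CPM in eWAT and 199.7, 367 and 148 CPM in iWAT, Ccl9 378, 225 and 321 CPM in eWAT and 102, 235 and 72.1 CPM in iWAT and Pf4 206, 156 and 297 CPM in eWAT and 95.3, 94.7 and 131 CPM in iWAT. T cells had less Cxcl2 (log2 -1.45), at 489.7, 386 and 692 CPM in eWAT and 155, 138 and 305 CPM in iWAT. B cells had less Cxcl10 (log2 -2.93, at 7.89, 111 and 141 CPM in eWAT and 2.28, 44.8 and 2.73 CPM in iWAT) and Ccl11 (-1.49, at 38.2, 106 and 108 CPM in eWAT and 32.2, 46.3 and 31.5 CPM in iWAT), the latter a call that 14 of 19 alternatives did not make. Those of iWAT numbered 1854 and 113 in WT-Veh, 20 and 53 in ob/ob-Veh and 71 and 77 in ob/ob-Rosi.

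The difference between depots in a group effect was tested directly. For ob/ob-Veh minus WT-Veh, 8 of 209 ligand pairs were called (0.454% of all pairs), and for ob/ob-Rosi minus ob/ob-Veh 4 of 209 (0.19%). None of the 12 was kept in every alternative. Ccl24 in perivascular macrophages rose with ob/ob-Veh in eWAT, as given above, while in iWAT it read 367 and 527 CPM in the WT-Veh libraries, 289 and 293 CPM in the ob/ob-Veh libraries and 359 and 558 CPM in the ob/ob-Rosi libraries (log2 fold change -2.52, SE 0.40, adjusted p = 0.023). Ccl8 in perivascular macrophages did not pass this test (log2 fold change 2.83, SE 0.65, adjusted p = 0.071), although in iWAT it read 3286 and 1868 CPM in the WT-Veh libraries, 1694 and 1919.8 CPM in the ob/ob-Veh libraries and 5831 and 2044 CPM in the ob/ob-Rosi libraries. Ccl11 in progenitors averaged 661 and 886 CPM in WT-Veh and ob/ob-Veh of eWAT and 899 and 262 CPM in iWAT (log2 fold change -2.33, SE 0.48, adjusted p = 0.044). Ccl6 in progenitors averaged 234, 101 and 228 CPM in eWAT and 137, 281 and 120.0 CPM in iWAT over the 3 groups, and Ccl9 169, 73.3 and 163 CPM in eWAT and 90.6, 168 and 57.4 CPM in iWAT. The C1q shares of progenitors moved in the same directions, in eWAT as given above. In iWAT they were 4.83% and 1.32% in WT-Veh, 6.21% and 5.49% in ob/ob-Veh and 2.81% and 2.13% in ob/ob-Rosi. Their part was not tested. Ccl8 in natural killer cells averaged 596, 38.3 and 289 CPM in eWAT and 215, 464 and 315 CPM in iWAT. The C1q shares of these cells in eWAT were 26.1% and 15.6% in WT-Veh and 11.3% and 11% in ob/ob-Veh. In iWAT they were 11.4% and 8.51% in WT-Veh and 31.4% and 14.8% in ob/ob-Veh. The part of these shares in the Ccl8 call was not tested.

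The rest of the pathway was read from lists of receptors and inducers, over the same classes. Of 74 receptor and class pairs tested in eWAT between ob/ob-Veh and WT-Veh, 6 were higher and 1 lower, in 6 of 14 receptors tested, where 1.54% of all gene and class pairs were called higher and 1.84% lower (1.41% and 1.25% in iWAT). Ccr2, the receptor of Ccl2 and Ccl7, was higher in T cells (log2 2.05) and Ccr1 in T cells (log2 1.99), while Ccr7 was lower in the Ear2 Tnip3 cluster (log2 -1.97). Both classes differed in make-up between groups at the finer clustering, as given above. The genes of these lists were fitted with the main processing only, so no alternative checks their calls. In iWAT, 4 of 72 were higher and 2 lower, with Ccr2 higher in perivascular macrophages (log2 3.27). Of the atypical receptors that take up chemokines, 6 of 30 pairs in eWAT and 7 of 37 in iWAT were higher in ob/ob-Veh, with 0 and 1 lower, and Ackr3, which binds Cxcl12, accounted for 3 of the former (log2 2.38 in preadipocytes). Of inducing cytokines, 6 of 55 pairs were higher and 2 lower in eWAT, with Il6 at log2 4.20 in progenitors, the class in which Cxcl1 rose, against 1 higher and 3 lower of 48 in iWAT. NF-κB feedback targets gave 18 higher and 6 lower of 179 pairs in eWAT and 1 higher and 2 lower of 152 in iWAT, and their eWAT summed level in progenitors was 1247 to 1303 CPM in WT-Veh, 3165 to 3655 CPM in ob/ob-Veh and 935 to 1244 CPM in ob/ob-Rosi. Interferon targets gave 6 higher and 0 lower of 117 pairs in eWAT and 15 higher and 0 lower of 111 in iWAT. The digestion response gave 25 higher and 0 lower of 156 pairs in eWAT and 10 higher and 0 lower of 142 in iWAT.

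Against ob/ob-Veh, ob/ob-Rosi gave 1 receptor pair higher and 4 lower of 74 in eWAT and 0 higher and 4 lower of 72 in iWAT, where 1.68% and 2.23% of all pairs were called higher and 1.29% and 1.68% lower. Inducing cytokines gave 2 higher and 6 lower of 55 in eWAT, among them Il6 in progenitors (log2 -4.54), and 3 higher and 4 lower of 48 in iWAT. Atypical receptors gave 0 higher and 3 lower of 30 in eWAT and 1 higher and 5 lower of 37 in iWAT. NF-κB targets were lower in 18 of 179 pairs and higher in 1 in eWAT, and lower in 7 of 152 and higher in 3 in iWAT, and interferon targets lower in 8 of 117 in eWAT and 18 of 111 in iWAT. The digestion response was lower in 26 of 156 pairs in eWAT, with 0 higher, and in 12 of 142 in iWAT, with 1 higher.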

How the data were processed

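Cells of the stromal vascular fraction of 12 libraries were profiled by 10x Genomics single-cell RNA sequencing. The authors deposited matrices of UMI counts per gene and barcode, which per the labels were made with bcl2fastq 2.19.1.403 and Cell Ranger 3.0.2 on mm10. Barcodes with 700 to 22000 UMIs, 200 to 6000 genes and under 25% mitochondrial UMIs were kept. Cells of each depot were clustered on 2000 variable genes, 25 principal components and 20 neighbours by the Leiden method at resolution 1 (Python 3.11.15, numpy 2.4.6, pandas 2.3.3, scanpy 1.11.5, python-igraph 0.11.9, scikit-learn 1.9.0). Clusters were named from marker lists without chemokines, and those that did not match stayed unnamed. Doublets were kept in the main results.

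For each library, the UMI counts of all cells of a class were added up if it held at least 20 of them, and classes with at least 5 libraries were tested with the quasi-likelihood test of edgeR 4.0.16 in R 4.3.3 (TMM normalization, low-count filter by group, Benjamini-Hochberg adjustment over all genes tested in the class). Each depot was fitted with its 6 libraries, and depot differences with all 12. The other macrophage class was left out of the fits of both depots. Calls needed an adjusted p no higher than 0.05 and a 1.1-fold difference. DESeq2 1.42.0, library size alone, no low-count filter, a replicate block, stricter cells (1500 UMIs, 10% mitochondrial), doublets removed, cells with 2 markers of a distant lineage removed, resolution 2 and leaving out each library were the alternatives, and removal of cells with shared barcodes was added after seeing the data. The scripts were tested on simulated data.

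All members were accounted for, those with at least 200 UMIs were described, and members called in any class were named with the class. Values by library were given for called members at 50 CPM or more in a library, in up to 3 classes, and as group means for depot differences. The members and gene lists were chosen with earlier results of these data known. The study describes each library as 1 mouse, and whether same-numbered libraries of both depots share a mouse is not given in the sources used here.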

Additional observations from a re-analysis of the deposited data

Results flagged for a closer look

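In 12 ligand and class pairs the group effect differed between depots by the interaction term of the fit over 12 libraries (edgeR, adjusted over all genes of the class). Values are the effect in iWAT minus that in eWAT on the log2 scale.

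For ob/ob-Veh minus WT-Veh, progenitors differed in Ccl11, a stromal eotaxin (-2.33, adjusted p = 0.044), and in Ccl6 (2.18, adjusted p = 0.018). Perivascular macrophages differed in Ccl24 (-2.52, adjusted p = 0.023). Ccl8 differed in blood endothelial cells (4.1, adjusted p = 0.045), natural killer cells (4.98, adjusted p = 0.0042), preadipocytes (4.44, adjusted p = 0.03) and the Ear2 Tnip3 cluster (4.68, adjusted p = 0.031). In the 3 named classes its median eWAT level lay below the share of the C1q genes. The C1q shares of these classes fell with ob/ob-Veh in eWAT and rose in iWAT, as given above for natural killer cells. Their part was not tested. Cxcl14 differed in the Ear2 Tnip3 cluster (4.70, adjusted p = 0.031). With cells holding markers of a distant lineage removed it turned to -0.97, and 7 of 20 alternatives did not call it.

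For ob/ob-Rosi minus ob/ob-Veh, the 4 pairs lay in progenitors, the class that also held 110 of the 170 calls over all genes, with Ccl3 (-3.88, adjusted p = 0.026), Ccl6 (-2.26, adjusted p = 0.013), Ccl9 (-2.58, adjusted p = 0.034) and the B cell attractant Cxcl13 (-2.75, adjusted p = 0.014). Both sets share the ob/ob-Veh libraries. The C1q shares of progenitors moved in the same directions as Ccl6 and Ccl9 in each depot, as given above, and their part was not tested.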

How the results depend on the processing

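Of 2867 recomputed values of the 177 calls, 2255 kept their direction and their side of the threshold, 606 kept the direction only and 6 reversed. With cells holding 2 markers of a distant lineage removed, the reversed values were 0.28 for Ccl4 in T cells of eWAT (ob/ob-Veh minus WT-Veh), 0.40 for Pf4 and 0.04 for Ccl6 in blood endothelial cells (iWAT minus eWAT) and -0.97 for Cxcl14 in the Ear2 Tnip3 cluster (depot difference of ob/ob-Veh minus WT-Veh). At resolution 2 they were 0.07 for Ccl4 in T cells and 0.67 for Ccl5 in progenitors (iWAT minus eWAT). The cause was not tested.

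Counts of called pairs are given for ob/ob-Veh minus WT-Veh, ob/ob-Rosi minus ob/ob-Veh and ob/ob-Rosi minus WT-Veh, in that order. Without a low-count filter they were 105, 104 and 18 in eWAT and 42, 61 and 18 in iWAT, with 77 for iWAT minus eWAT and 40 and 50 for the depot differences of the ob/ob-Veh and ob/ob-Rosi effects. DESeq2 gave 24, 40 and 5 in iWAT and 23 and 20 for the depot differences. Removing cells with distant-lineage markers gave 30 for ob/ob-Rosi minus ob/ob-Veh in eWAT, 5 and 7 in iWAT, 15 for iWAT minus eWAT and 3 and 0 for the depot differences. With doublets removed the last 3 were 24, 3 and 2, and at resolution 2 the depot differences were 5 and 2. Stricter cells gave 1 for ob/ob-Rosi minus WT-Veh in eWAT and 8 for the depot difference of the ob/ob-Rosi effect.

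Leaving out each library gave 28 to 63, 24 to 57 and 0 to 5 in eWAT, 0 to 57, 0 to 67 and 0 to 17 in iWAT, 28 to 49 for iWAT minus eWAT and 1 to 15 and 1 to 16 for the depot differences. Without eWAT ob/ob-Veh replicate 1 the eWAT counts were 28 and 24. A group left with 1 library was assumed to vary like the others.

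With the replicate block the counts were 81, 83 and 4 in eWAT, 38, 58 and 13 in iWAT and 26 and 28 for the depot differences, and 160 of the 177 calls remained. Deviations of same-numbered libraries correlated across genes at 0.259 to 0.48 in eWAT, at 0.622 to 0.726 between WT-Veh and ob/ob-Rosi of iWAT and at 0.027 to 0.25 with ob/ob-Veh. With only 2 numbers the labels give the libraries no more than a shared number, although iWAT perivascular macrophages of WT-Veh and ob/ob-Rosi also clustered by it. At 2 libraries a group, small differences were not detectable, and classes of few cells gave low counts.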
